A study of Musca domestica with 10 samples.

Results

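Transcripts that house fly embryos held at the syncytial blastoderm and had nearly lost by dorsal closure numbered 61 of the 15803 annotated genes. They were chosen by their levels at the ends of the series: each had 10 CPM or more in both libraries of the syncytial blastoderm and less than 1 CPM in both of dorsal closure, where CPM is the reads of a gene scaled to 1000000 gene reads per library. The series profiled RNA of whole Musca domestica embryos, with 2 replicate pools of 100 embryos for each of 5 stages. In the syncytial blastoderm (SB) nuclei divide without cell membranes between them, and in the cellular blastoderm (CB) each nucleus has been enclosed in a cell. The gastrula forms the germ layers, germ band extension (GBE) stretches the trunk, and in dorsal closure (DC) the epidermis meets along the back. The labels name no strain, treatment or exact age, and each library pools many embryos, so differences between single embryos cannot be seen. Levels at SB and DC are given as a description and were not tested. CB, gastrula and GBE played no part in the choice, and comparisons among those stages were tested.

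A fly egg is loaded by its mother with RNA and develops at first without transcription of its own genome. In the maternal-to-zygotic transition, known best from Drosophila melanogaster, much of this RNA is destroyed in waves: some of it by proteins that the egg itself supplies, such as the RNA-binding protein Smaug, which recruits a deadenylase, and some of it only after the embryo has begun to transcribe its own genes. Some maternal RNAs are removed from the bulk of the embryo but kept in the germ cells. No unfertilised egg was among the samples analysed here, so maternal RNA and early transcripts of the embryo cannot be told apart at SB. The count files name genes by MDOA identifiers without gene names, and 0 of them matched the reference gene table, so each gene is described by its identifier and its course, and no function is given to it.

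Gene reads numbered 16288442 in SB replicate 1 and 42479342 to 83604709 in the other libraries, so that 1 CPM stood for 16.3 reads in the shallowest library and 42.5 to 83.6 reads elsewhere. At SB the member with the fewest reads had 181 in replicate 1 and 430 in replicate 2. At DC the members had 1 to 79 reads in replicate 1 and 0 to 44 in replicate 2, and 5 and 13 of them had 3 reads or fewer. A CPM is a share of the library, so a lower CPM can mean less of a transcript or more of all others. In whole embryos, less RNA per cell and fewer cells that hold it cannot be told apart either.

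The 61 transcripts together were a small part of the RNA from the start. They took 0.785% and 0.712% of the gene reads in the SB libraries, 0.191% and 0.207% at CB and 0.0593% and 0.0433% at gastrula. At GBE the shares were 0.0561% and 0.0168%, and at DC 0.00242% and 0.00268%. The share was thus lower at CB and again at gastrula in both replicates, while between gastrula and GBE it was clearly lower in replicate 2 alone. Median levels of the members went the same way, with 57.9 and 47.2 CPM at SB, 10.8 and 12.9 CPM at CB, 4.35 and 2.58 CPM in the gastrula, 4.22 and 1.33 CPM at GBE and 0.407 and 0.45 CPM at DC.

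**Figure D1:**
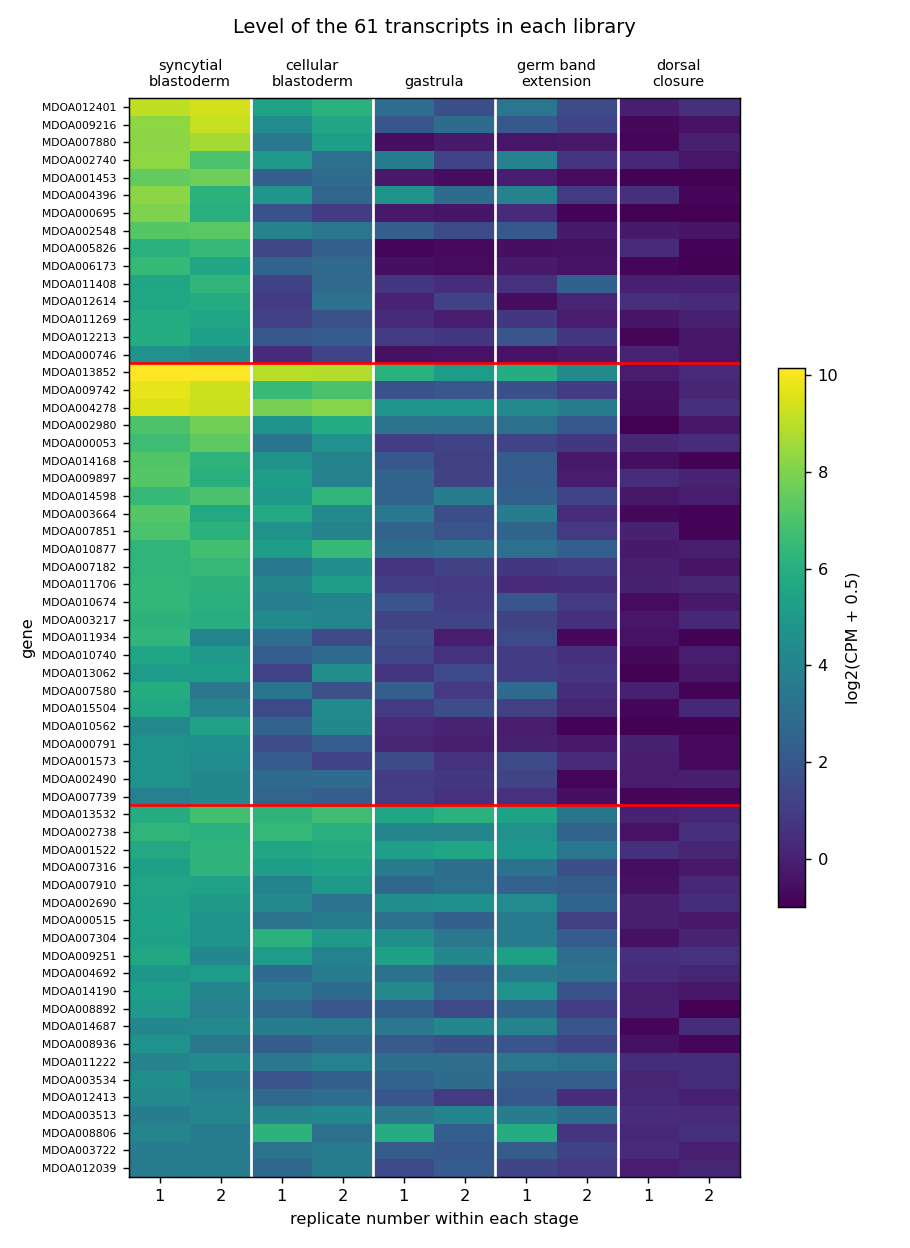
Level of each of the 61 transcripts (rows) in each of the 10 libraries (columns, by stage and replicate number), as log2(CPM + 0.5) from dark (low) to yellow (high). Red lines separate, from the top, the 15 genes whose mean was first below 10% of the syncytial blastoderm mean at cellular blastoderm, the 25 at gastrula and the 21 at dorsal closure; the lowest block stood at medians of 11.2 and 4.23 CPM at germ band extension and at 0.456 and 0.63 CPM at dorsal closure.

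The members spanned a wide range of starting levels, from 11.8 CPM (MDOA012039, 11.1 and 12.4 CPM) to 1135 CPM (MDOA013852, 1129 and 1140.3 CPM), and 17 of them averaged at least 100 CPM. Set against its own mean at SB, the median member had 26.2% left at CB, 5.12% at gastrula, 3.67% at GBE and 0.688% at DC. The other 5954 genes at 10 CPM or more in both SB libraries had a median of 81.2%, 61.7%, 59.9% and 41.4% left at these stages. A further comparison is with 667 of those genes that stood from 1 to below 10 CPM in both DC libraries, whose medians were 57.7%, 33.5%, 30.8% and 10.3%. The order of the groups at DC follows from how they were chosen. At CB and gastrula the members were already the lowest of the 3 groups, although their SB levels, which the rule set, stand in the denominator.

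**Figure D2:**
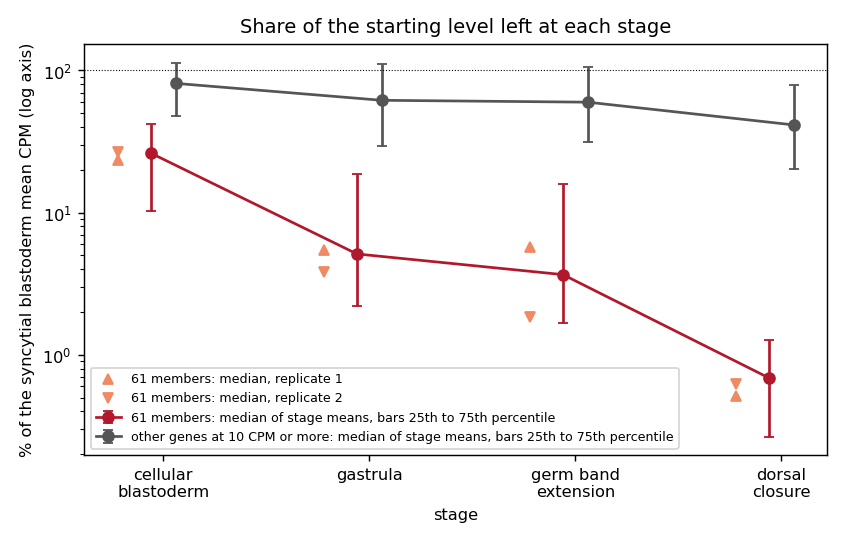
Percent of the syncytial blastoderm mean CPM (log axis) left at each later stage; red and grey points are medians over the 61 members and over the other 5954 genes at 10 CPM or more, with bars from the 25th to the 75th percentile, and triangles are the members' medians in single libraries. The members' median went to 26.2% and 5.12% at the first 2 of these stages; the germ band extension libraries stood apart, at 5.69% and 1.84%.

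Timing differed among the members. The mean level was first below 10% of the SB mean at CB for 15 genes, at gastrula for 25, at GBE for 0 and at DC for 21. The 0 at GBE rests on replicate 1 of that stage: without it 7 members were first below the mark at GBE and 14 at DC, since 7 of the 21 late genes stood below 10% of their SB mean in GBE replicate 2 and 0 in replicate 1. In all, 15 members were below this mark at CB, 40 at gastrula and 39 at GBE, and of the 9878 tested genes with reads at SB 4.52%, 7.44% and 5.84% were. The milder mark of 50% was first passed at CB by 46 members, at gastrula by 9, at GBE by 2 and at DC by 4. The absolute floor of 1 CPM was reached later. Both libraries were first below it at CB for 0 members, at gastrula for 9, at GBE for 3 and at DC for 49. Most genes below 10% of their starting level by gastrula thus still stood at or above 1 CPM there in at least 1 library. The rule set this floor at DC, so the 49 are simply the members not below it before. For the marks of 50% and 1 CPM the share of all genes was not counted.

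The 15 early genes were abundant at the start, with medians of 149.8 and 81.3 CPM at SB, and had medians of 4.61 and 6.71 CPM at CB. By gastrula their medians were 0.807 and 0.852 CPM. MDOA000695 had the lowest share of its starting mean left at CB of all 61. It stood at 256 and 63.6 CPM at SB, 2.99 and 1.49 CPM at CB, 0.357 and 0.264 CPM in the gastrula, 0.783 and 0.0379 CPM at GBE and 0.0247 and 0 CPM at DC. Its SB libraries differed by more than those of most members, but both stood far above both CB libraries. MDOA001453 had 177.6 and 206.5 CPM at SB, 4.6 and 7.06 CPM at CB, 0.344 and 0.142 CPM in the gastrula, 0.391 and 0.133 CPM at GBE and 0.0247 and 0.0225 CPM at DC. MDOA011269, the next lowest, had 57.9 and 47.2 CPM at SB, 1.67 and 2.91 CPM at CB and 0.807 and 0.446 CPM in the gastrula. It was also the one gene of the 12 below 1 CPM before DC that was back above that floor in a later library, at 1.24 CPM in GBE replicate 1 and 0.436 CPM in replicate 2.

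Several of the most abundant members belonged to this early group. MDOA007880 stood at 297 and 403 CPM at SB, 10.5 and 37.3 CPM at CB, 0.172 and 0.365 CPM in the gastrula and 0.31 and 0.341 CPM at GBE, so that it had nearly reached its DC level (0.074 and 0.495 CPM) by gastrula. MDOA012401 had 545 and 670.1 CPM at SB, 43.3 and 69.5 CPM at CB, 7.68 and 2.82 CPM in the gastrula and 9.77 and 2.48 CPM at GBE. MDOA009216 had 309 and 577 CPM at SB, 20.5 and 47.7 CPM at CB, 3.46 and 7.14 CPM in the gastrula and 3.64 and 1.84 CPM at GBE. These last genes lost most of their level by CB and then kept a low remainder through GBE. MDOA002740 had 306 and 128.8 CPM at SB and 32.1 and 8.09 CPM at CB. In replicate 1 it stayed at 12.3 CPM in the gastrula and 14.3 CPM at GBE, against 1.87 and 1.16 CPM in replicate 2.

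The 25 genes of the middle group had medians of 79.9 and 64.6 CPM at SB, 13.2 and 17.5 CPM at CB and 2.64 and 1.81 CPM in the gastrula. The 3 most abundant showed this course at different depths. MDOA013852, the most abundant member at the start, had 492 and 463 CPM at CB, 70.1 and 35.5 CPM in the gastrula, 58.9 and 18.9 CPM at GBE and 0.407 and 0.765 CPM at DC. MDOA004278 had 763 and 612 CPM at SB, 236 and 279.6 CPM at CB, 27.8 and 28.4 CPM in the gastrula, 18.5 and 12.6 CPM at GBE and 0.173 and 0.9 CPM at DC. Both were still plainly detected after gastrulation, at GBE, while the rule itself held their DC levels below 1 CPM. MDOA009742 was lower by gastrula, with 856 and 630.0 CPM at SB, 91.3 and 122.8 CPM at CB, 2.96 and 3.63 CPM in the gastrula, 2.85 and 1.48 CPM at GBE and 0.21 and 0.653 CPM at DC.

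The 21 late genes started lower, with medians of 30.9 and 18.5 CPM at SB, and stood at 12.9 and 12.8 CPM at CB, 10.1 and 7.36 CPM in the gastrula and 11.2 and 4.23 CPM at GBE. At DC their medians were 0.456 and 0.63 CPM. The 10% mark is a share of the SB mean, while the rule caps DC at the same level for all members. The order of starting levels among the early, middle and late groups is thus partly built in. MDOA013532 had 58.9 and 111 CPM at SB, 77.1 and 102.6 CPM at CB, 47.2 and 68.3 CPM in the gastrula, 44.0 and 9.49 CPM at GBE and 0.518 and 0.653 CPM at DC. Its CB values lay within the range of the SB libraries, and the GBE libraries were far apart. In MDOA008806 the replicates took different courses from CB onwards. Replicate 1 had 16.2 CPM at SB, 73.7 CPM at CB, 59.4 CPM in the gastrula, 58.7 CPM at GBE and 0.728 CPM at DC. Replicate 2 had 11.3, 8.28, 4.6, 1.12 and 0.9 CPM at the same stages, so the mean of this gene describes neither library.

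For 4 members the mean stayed at 50% or more of the SB mean through GBE: MDOA008806, MDOA009251, MDOA003513 and MDOA014687, of which MDOA003513 and MDOA014687 were named after their values were seen. This rests on GBE replicate 1, without which the count was 0. MDOA003513 had 12.6 and 16.9 CPM at SB, 15.6 and 18.0 CPM at CB, 10.1 and 15.8 CPM in the gastrula, 12.2 and 7.26 CPM at GBE and 0.838 and 0.743 CPM at DC. MDOA009251 had 49.6 and 17.6 CPM at SB, 34.3 and 14.6 CPM at CB, 41.1 and 17.3 CPM in the gastrula, 39.9 and 7.43 CPM at GBE and 0.949 and 0.99 CPM at DC. In both genes and both replicates the largest step was the one to DC. MDOA014687 had 17.9 and 18.5 CPM at SB, 12.9 and 11.8 CPM at CB, 10.3 and 17.5 CPM in the gastrula, 15.3 and 3.45 CPM at GBE and 0.0617 and 0.855 CPM at DC, so that its largest step was the one to DC in replicate 1 and the one to GBE in replicate 2. No member had both libraries of a middle stage above both SB libraries, a count of 0 of 61 at each of CB, gastrula and GBE. The share of all genes that did so was not counted. The rule set the members' SB levels, so the count is a description only.

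**Figure D3:**
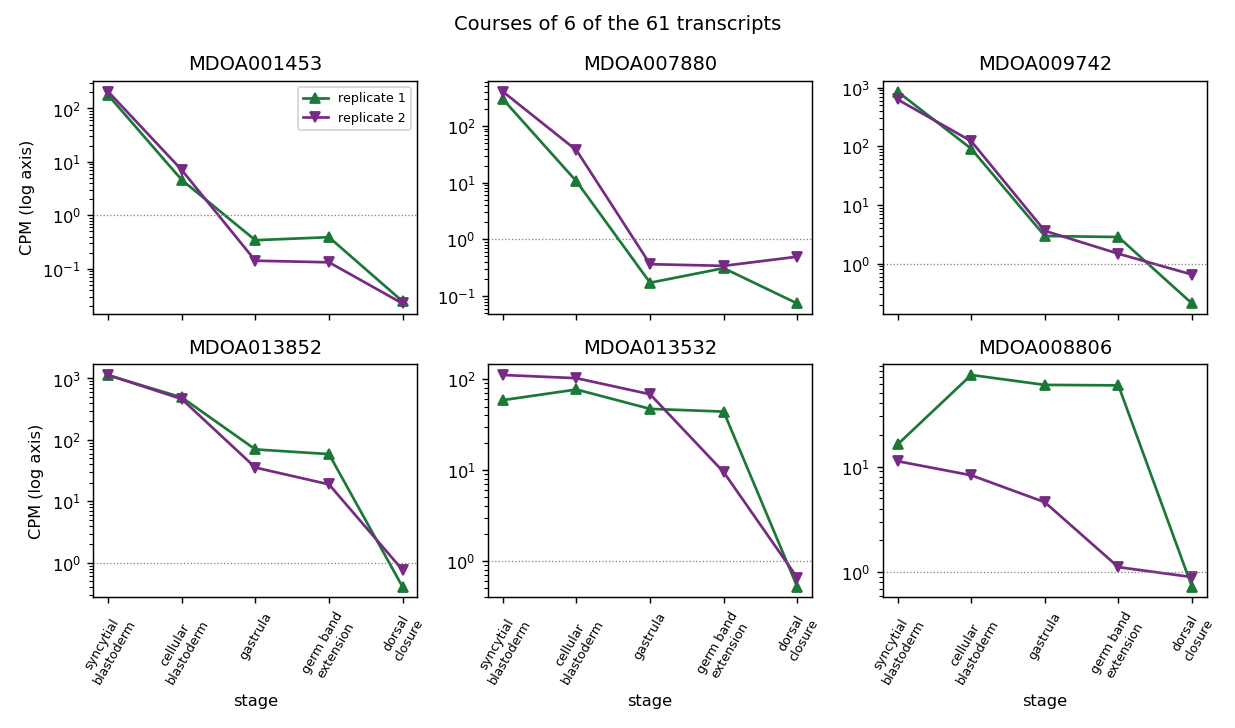
CPM (log axis) of 6 members across the 5 stages, with replicate 1 as upward and replicate 2 as downward triangles and a dotted line at 1 CPM. The upper row holds genes at or below 3.63 CPM by gastrula, and the lower row genes that kept higher levels; MDOA008806 stood at 73.7 CPM in replicate 1 and 8.28 CPM in replicate 2 at cellular blastoderm.

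GBE against CB is the widest comparison among the stages that the rule did not use, and 15 of the 61 members (24.6%) fell while 0 rose. In this comparison 1.2% of the 11286 genes tested were called lower and 2.84% higher, and among the other 5954 genes abundant at SB 1.85% were called lower. The test was edgeR's quasi-likelihood test over all genes at a Benjamini-Hochberg adjusted p under 0.05; 0 members were higher at an unadjusted p under 0.05, or called higher by DESeq2 or limma-voom. The members' median log2 fold change was -2.58, against 0.07 over all genes tested, and 59 of 61 had a negative value. A member had to lose its level at some step, so a fall somewhere is built into the choice, and the counts show only how much of it lay between these stages. All 61 passed the filter on low counts, also where it was applied to the libraries of these stages alone. With the replicate number as a block, used because libraries of the same number deviated together, 30 members fell (49.2%) and 0 rose. In that fit 6.49% of all genes and 11.0% of the other genes abundant at SB fell. DESeq2 without the block also called 30 lower, against 4.92% of all genes (12.6% higher) and 8.01% of those other genes. Both GBE libraries were below both CB libraries for 45 members (73.8%), which held for 20.4% of all genes and 31.2% of those other genes.

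The members that fell furthest here were MDOA007880 and MDOA010562, which belonged to the early and the middle group. MDOA007880, at 0.31 and 0.341 CPM at GBE against 10.5 and 37.3 CPM at CB, had a fitted log2 change of -6.17 ± 1.12 (SE, edgeR adjusted p = 0.027, and 0.00122 with the block). MDOA010562, with 0.432 and 0.0379 CPM at GBE against 5.31 and 17.5 CPM at CB, had one of -5.65 ± 1.30 (edgeR adjusted p = 0.0485, and 0.0159 with the block). In both genes the libraries of the stages did not overlap, although the CB replicates differed by more than 3-fold. The GBE values rest on 23 and 18 reads for MDOA007880 and on 32 and 2 reads for MDOA010562. MDOA009742 fell by 5.64 ± 0.71 on the log2 scale (edgeR adjusted p = 0.0195, and 0.00122 with the block), and its libraries are given above. MDOA011706 had 0.81 and 0.872 CPM at GBE against 16.2 and 38.2 CPM at CB, a fitted log2 change of -4.99 ± 0.70 (edgeR adjusted p = 0.0195, and 0.00141 with the block). MDOA001453 fell by 4.48 ± 0.67 on the log2 scale (edgeR adjusted p = 0.0203, and 0.00196 with the block). Of the other members described, MDOA013852 had a fitted log2 change of -3.65 ± 0.64 (edgeR adjusted p = 0.0249) and MDOA004278 one of -4.04 ± 0.75 (edgeR adjusted p = 0.0286). For MDOA009216 it was -3.65 ± 0.78 (edgeR adjusted p = 0.0419) and for MDOA012401 -3.25 ± 0.75 (edgeR adjusted p = 0.0498). All 9 of these genes were lower at GBE in both replicates.

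These calls leaned on single libraries, and in each fit listed here fewer of all genes tested were called lower as well. Without either CB library, or without GBE replicate 2, 0 members were called in edgeR, and 21, 14 and 17 were with the block, in that order; without either SB library the count was 7 and 6, without either gastrula library 7 and 6, and on the libraries of these stages alone it was 0.

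From CB to gastrula, 0 members passed the threshold in either direction without the block, as was true of all 11286 genes (0% lower and 0% higher). In this edgeR test 24 members were lower and 0 higher at an unadjusted p under 0.05, which 1424 of all genes met in either direction. DESeq2 called 19 members lower and 0 higher (3.03% and 4.96% of all genes), and limma-voom called 0 members. With the block, 18 members fell (29.5%) and 0 rose, against 2.81% and 3.87% of all genes. Of the other genes abundant at SB, 4.75% fell in that fit. The median log2 fold change of the members was -1.85, against 0.09 over all genes, and 55 of 61 were negative. Both gastrula libraries were lower than both CB libraries for 43 members (70.5%). This pattern was found in 21.2% of all genes tested and in 32.3% of the other genes abundant at SB. In the same sense 2 members were higher, and the share of all genes that were higher was not counted.

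MDOA007880 changed most at this step as well, at 0.172 and 0.365 CPM in the gastrula, against 10.5 and 37.3 CPM at CB. Its log2 fold change was -6.15 ± 0.62 in edgeR with the block (adjusted p = 0.00394, and 0.0749 without). MDOA006173 had 0.185 and 0.122 CPM in the gastrula against 5.39 and 6.71 CPM at CB, a fitted log2 change of -5.20 ± 0.78 (edgeR adjusted p = 0.00786 with the block, and 0.0841 without). MDOA005826 had 0.0661 and 0.101 CPM in the gastrula against 2.08 and 4.85 CPM at CB, a fitted log2 change of -5.18 ± 1.13 (edgeR adjusted p = 0.0275 with the block, and 0.119 without). The libraries of the stages did not overlap in any of these genes, and at gastrula the values rest on 5 to 18 reads. MDOA009742 had a fitted log2 change of -4.85 ± 0.55 (edgeR adjusted p = 0.00396 with the block, and 0.0749 without), and MDOA001453 one of -4.45 ± 0.59 (edgeR adjusted p = 0.0053 with the block, and 0.0749 without). The blocked count at this step was 4 without either gastrula library, and 8 and 5 without CB replicate 1 and 2.

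**Figure D4:**
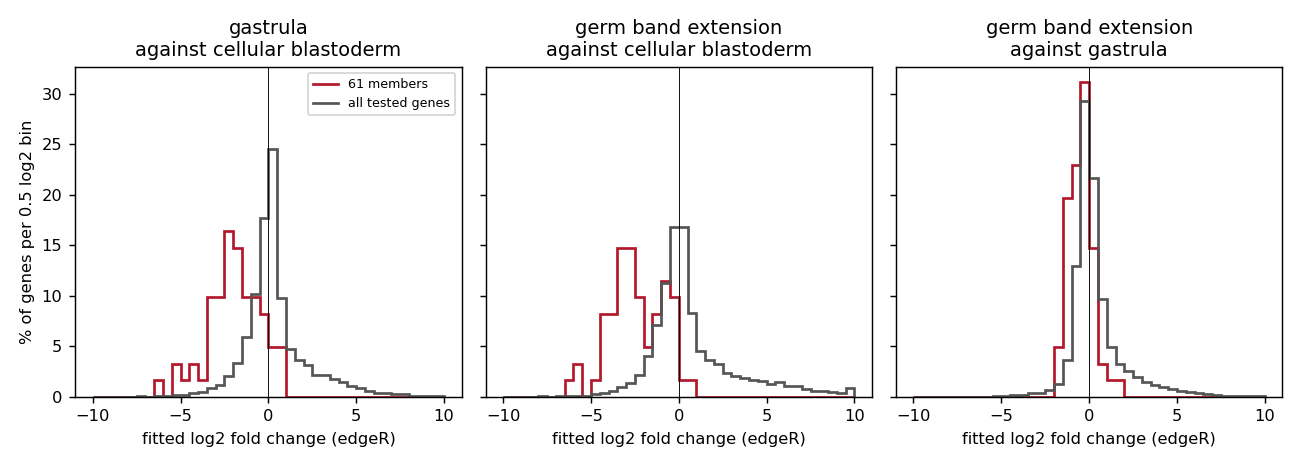
Distribution of fitted log2 fold changes (edgeR, without the block) in the comparisons that the rule did not use, as the percent of genes in bins of 0.5, for the 61 members (red) and all 11286 genes tested (grey). The members' medians were -1.85, -2.58 and -0.48 from left to right, and those of all genes 0.09, 0.07 and 0.

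At GBE against gastrula the members' median log2 fold change was nearest to 0 of the comparisons tested. No member was called in edgeR without or with the block, and likewise 0% of all genes in either direction. At an unadjusted p under 0.05 in edgeR stood 1 member without the block and 3 with it, each of them lower. Of all 11286 genes, 573 and 1089 stood there in either direction. DESeq2 (0.0354% of all genes lower and 1.51% higher) and limma-voom called 0 members. The median log2 fold change was -0.48, against 0 over all genes, and 48 of 61 members had a negative value. Both GBE libraries lay below both gastrula libraries for 14 members (23%) and above both for 4. The share lying below was 8.57% of all genes and 10.9% of the other genes abundant at SB. The share of all genes lying above was not counted. In the fit with the block the members' median log2 fold change was -1.22 without GBE replicate 1, against 0.06 over all genes. Without GBE replicate 2 it was -0.03, against 0.06.

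The replicates differed at this step. In replicate 1 the median change of the members was 0.04 on the log2(CPM + 0.5) scale and 30 of 61 were lower at GBE, while in replicate 2 the median change was -0.85 and 55 of 61 were lower. The other genes abundant at SB had median changes of 0.06 in replicate 1 and -0.18 in replicate 2. MDOA013532, for example, had 44.0 CPM at GBE against 47.2 CPM in the gastrula in replicate 1, and 9.49 CPM against 68.3 CPM in replicate 2. From GBE to DC the median change was -2.60 in replicate 1 and -1.11 in replicate 2. The rule held both DC libraries below 1 CPM. Members stood higher at GBE in replicate 1, so the larger fall there follows largely from the rule. Each step has 1 library per replicate series, so the differences between the replicates were not tested.

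**Figure D5:**
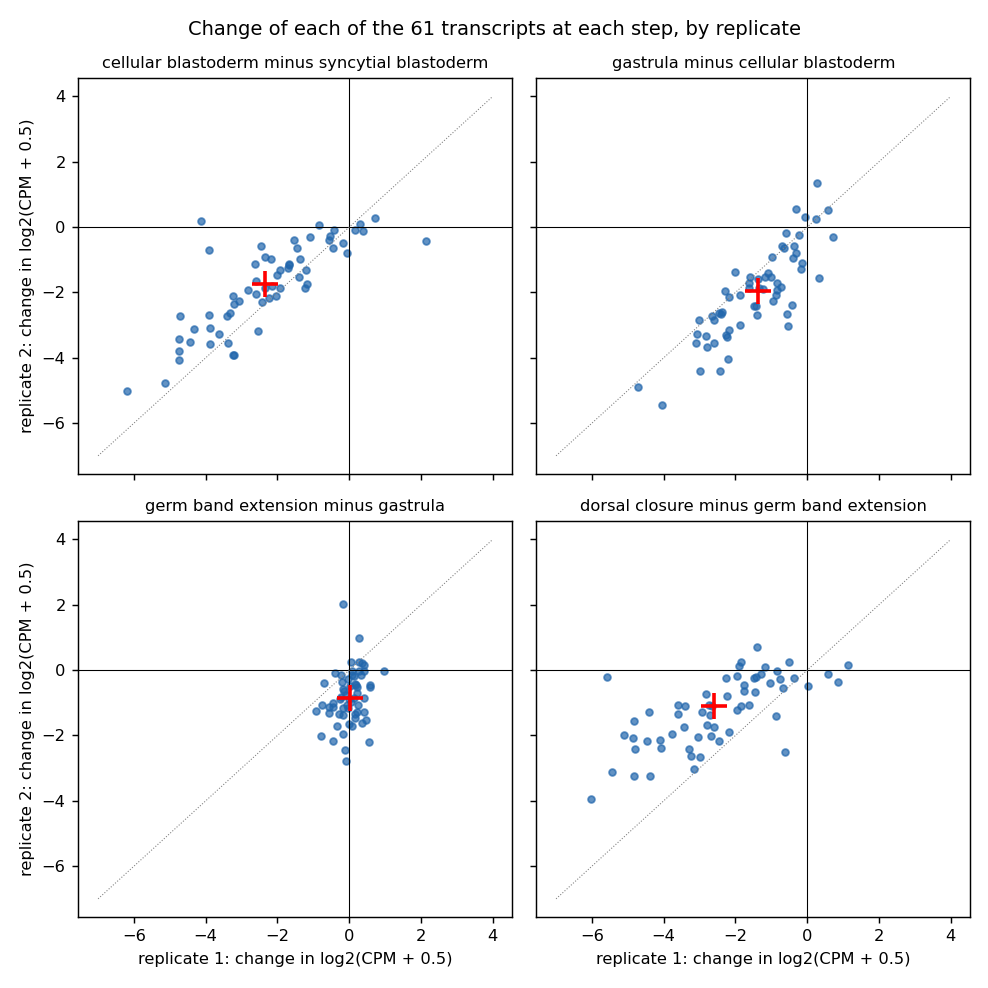
Change of each of the 61 members in log2(CPM + 0.5) at each step, in replicate 1 (horizontal) and replicate 2 (vertical); the red cross marks the medians and the dotted line equal change. At the step to germ band extension the points stand near 0 in replicate 1 (median 0.04) and mostly below 0 in replicate 2 (median -0.85).

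From SB to CB, where the SB levels helped to choose the genes, the change is described only. The median change was -2.34 in replicate 1 and -1.75 in replicate 2 on the log2(CPM + 0.5) scale, with 54 of 61 members lower in both, and the other abundant genes had medians of -0.42 and -0.28. Both CB libraries were below both SB libraries for 49 members (80.3%). This was so for 26.1% of all genes tested and for 38.4% of the other genes abundant at SB. Which step held the largest loss depended on the replicate: in replicate 1 it was the first step for 22 members, the step to gastrula for 7, that to GBE for 0 and that to DC for 32. In replicate 2 these numbers were 17, 26, 2 and 16. The rule used the levels at SB and DC, so the first and last of these steps are described only. The same step held the largest loss in both replicates for 33 of the 61, and the mean level was lower at every step for 34.

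Members also differed between the replicates in level. At GBE 53 of 61 were higher in replicate 1 and 33 by more than 2-fold, with a median log2 difference of 1.11 (replicate 1 minus replicate 2), against 0.49 for the other abundant genes. CB showed a weaker lean the other way: 39 of 61 members were higher in replicate 2, 16 of them by more than 2-fold. In replicate 1, 10 members were higher by more than 2-fold. The median log2 difference at CB was -0.28, against -0.01 for the other abundant genes. The CB replicates were furthest apart in MDOA013062, which had 1.84 CPM in replicate 1 and 22.4 CPM in replicate 2, MDOA008806, described above, and MDOA015504, with 2.37 and 18.9 CPM. The first of these had close values of 34.4 and 37.0 CPM at SB and 1.12 and 2.29 CPM in the gastrula. A set of 7 members was more than 2-fold higher in replicate 1 at every stage before DC, and 0 members were in replicate 2; of the other 5954 genes, 320 and 121 were. Across the 61 members the replicate differences at SB and CB correlated at r = 0.58, against 0.61 across the other genes. For gastrula and GBE r was 0.70 against 0.79. In each pair with DC, whose levels the rule capped, r was lower across the members, as for GBE and DC (0.15 against 0.77). These values are a description, since all points of a pair share the same 4 libraries.

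Many genes lay close to the thresholds. Just inside the starting threshold stood MDOA008936, with a lower SB library of 10.1 CPM, MDOA007580 with 10.3 CPM and MDOA012039 with 11.1 CPM. Just outside it were MDOA003472 with 9.7 CPM, MDOA003066 with 8.76 CPM and MDOA009664 with 8.15 CPM, all of them below 1 CPM in both DC libraries. At the DC floor, the members MDOA009251, MDOA004396 and MDOA002738 had a higher library of 0.99, 0.974 and 0.968 CPM. MDOA006097, MDOA003103 and MDOA009661 missed it with 1.01, 1.04 and 1.06 CPM. Between 1 and 2 CPM in the higher DC library were 75 further genes with the required starting level, more than the 61 members themselves.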

How the data were processed

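RNA of whole embryos was sequenced in 10 libraries, 2 per stage; stage and replicate number come from the sample titles. Per the labels' protocols, paired reads of 100 bp were sequenced from inserts of 200 bp. The authors deposited raw counts of reads per gene, made with STAR and HTSeq per the submitters' processing notes; for versions, genome build, annotation, strand setting and any selection of polyadenylated RNA the entry is: not given in the sources used here. Without a known strand setting, reads of overlapping or antisense genes, and of near-identical copies, could be shared or missing. The 5 rows naming no gene were left out: 10.5% to 25% of reads had no feature, 5.31% to 10.7% aligned to several places and 0.353% to 0.661% were ambiguous.

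CPM is the count divided by the sum of gene counts, scaled to 1000000; a value rests on a count, with counting error only. Tests used edgeR 4.0.16 in R 4.3.3 on the counts of all 10 libraries: filterByExpr by stage (11286 genes), TMM factors (0.793 to 1.36), a robust quasi-likelihood fit with 1 coefficient per stage, and Benjamini-Hochberg adjustment over all genes. Each standard error is the absolute unshrunken change over the root of its F statistic. Fitted changes are TMM-scaled, unlike the CPM values. The steps were run on simulated counts without a replicate effect, which cannot show how the fits behave where replicates differ as here.

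The differences between replicates 2 and 1 (log2 CPM, all genes) were correlated in every one of 10 stage pairs (r from 0.321 to 0.608, above the level of 0.1), so the numbers were treated as pairing the libraries, and fits with a replicate block are given where they differ. The labels do not say what a number marks, and nothing says whether replicates came from separate cages, so p-values measure the spread between these libraries. Alternatives were DESeq2 1.42.0, limma-voom (limma 3.58.1), other scalings and filters, only the stages compared, other floors, and leaving out each library, where a lone library is assumed to vary like other stages.

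Genes were named by fixed rules: the 8 most abundant members at syncytial blastoderm, the 3 with the lowest share left at cellular blastoderm, the 3 highest at germ band extension, any that exceeded their start (0 found), 3 on each side of each threshold, the 5 largest called changes per comparison (from the blocked fit where the other called 0) and the 3 with the most different cellular blastoderm replicates. The members and these rules were chosen with earlier results of these data known, and the marks of 10% and 50% after seeing the values. Gene lists by function were not used, since identifiers carry no names.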

Additional observations from a re-analysis of the deposited data

How the results depend on the processing

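For 11 named members in 15 pairs of gene and comparison (the largest changes, and the other named members called without the block), 0 of 480 alternative values of the fold change reversed, while 70 lost and 78 gained the threshold; other named members were not rerun. Over fits with the block, the highest adjusted p of the 5 members named for germ band extension against cellular blastoderm was 0.0811 (MDOA010562), and over fits without it 0.197 (same gene); for gastrula against cellular blastoderm these were 0.233 and 0.571 (both MDOA005826), and the lowest without the block was 6.92e-12 (DESeq2, MDOA006173). At gastrula against cellular blastoderm 0 members were called lower without the block. The number was 18 with the replicate block, 21 with the block and total counts and 24 with the block in DESeq2. It was 19 in DESeq2 and 5 without the low-count filter. Over all genes these fits called 0, 317, 432, 722, 342 and 17 lower, in that order. Fits added after seeing the data called 18 members (block and DESeq2's size factors) and 23 (block and limma-voom). They called 277 and 434 of all genes lower. For germ band extension against cellular blastoderm 15 members were called lower without the block. The number was 30 with the replicate block, 30 with total counts added and 37 with the block in DESeq2. It was 30 in DESeq2, 0 on only the stages compared, and 27 and 37 in the added fits. Over all genes these fits called 135, 732, 744, 1016, 555, 0, 591 and 964 lower, in that order. Leaving out 1 library without the block gave 0 to 1 at gastrula against cellular blastoderm, 0 to 16 at germ band extension against cellular blastoderm and 0 at germ band extension against gastrula. With the block, leaving out replicate 1 and then 2 of SB, CB, gastrula, GBE and DC in turn gave 14, 14, 8, 5, 4, 4, 23, 23, 24 and 25 at the first of these comparisons. At the second it gave 24, 26, 21, 14, 26, 26, 32, 17, 35 and 34, and at the last 4 without GBE replicate 1 and 0 otherwise. No alternative called a member higher: 0 in all fits, comparisons and tools.

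The rule gave 53 genes on TMM-scaled CPM, 29 with a floor of 0.5 CPM and 136 with 2 CPM, and 61 to 175 without a library (175 and 93 without dorsal closure replicate 1 and 2). Members first below the floor in CB, gastrula, GBE and DC numbered 0, 4, 1 and 24 with the floor of 0.5 CPM, and 3, 24, 5 and 104 with 2 CPM. Without 1 library these counts ran from 0 to 1, 8 to 16, 2 to 15 (15 without germ band extension replicate 1) and 37 to 156. In counts added after seeing the data, leaving out 1 library of the first 4 stages put 12 to 15 members first below 10% of their start at CB, 22 to 28 at gastrula, 0 to 7 at GBE (7 without GBE replicate 1) and 14 to 23 at DC, and 0 to 5 at 50% or more through GBE. The median percent left on TMM-scaled CPM was 33.9% at cellular blastoderm, 7.26% at gastrula and 0.885% at dorsal closure; without a library it ran from 21.5% to 32.7%, 3.85% to 7.13%, 1.84% to 5.69% and 0.513% to 0.803% at the successive stages. At dorsal closure depth limits the values: 3 reads are 0.037 and 0.0675 CPM there.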
